A study of Homo sapiens with 16 samples.

Results

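Peaks of the hypoxia-inducible factors HIF-1α and HIF-2α were examined at 7 genes of glycogen metabolism: PGM1, UGP2, GYS1 and GBE1, which make glycogen, PYGL, which breaks it down, and PPP1R3B and PPP1R3C, which regulate the balance. A peak was assigned to a gene when its centre lay within 50 kb of a start site of a protein-coding transcript of that gene (GENCODE on GRCh37). Of the 19821 protein-coding genes, these 7 were chosen by name for their role, with earlier results of these data known. Of the 23398 peaks in all lists, 51 were assigned to them. ChIP-seq, which recovers and sequences the DNA attached to a protein, had been performed in 4 human cancer cell lines: A549 (lung), HCT116 (colorectal), PC3 (prostate) and T47D (breast). Every culture had been kept in 0.5% oxygen for 16 hours, so that no normoxic library entered any comparison, and chromatin was precipitated with the antibody PM14 against HIF-1α or PM9 against HIF-2α. There were 2 replicates for each line and antibody, giving 8 groups and 16 libraries. Each line is an established tumour culture, and peak positions cannot be used to check its identity against marker genes.

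Glycogen is the branched glucose polymer in which cells store carbohydrate. Phosphoglucomutase (PGM1) interconverts glucose 6-phosphate and glucose 1-phosphate, UDP-glucose pyrophosphorylase (UGP2) activates the latter to UDP-glucose, glycogen synthase (GYS1 is the muscle-type, widely expressed form) extends the chains, and the branching enzyme (GBE1) introduces branch points. Glycogen phosphorylase (PYGL is the liver-type form) releases glucose 1-phosphate again. PPP1R3B and PPP1R3C are glycogen-targeting subunits that bring protein phosphatase 1 to glycogen, where it activates the synthase and inactivates the phosphorylase. HIF-1 and HIF-2 are the transcription factors that accumulate in low oxygen. Each pairs an α subunit with HIF-1β and binds the hypoxia response element, whose core is RCGTG, that is ACGTG or GCGTG.

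The score of each peak is that of the peak caller and its scale is not given in the sources used here, so it was expressed as a percentile, the percentage of peaks in the same library with an equal or lower score. The value of a gene in a library was the percentile of its best peak within 50 kb, or 0 where it had none. The lists held from 275 peaks (PC3 HIF-2α replicate 1) to 4505 peaks (HCT116 HIF-1α replicate 2). They contain no read totals, so the depth of each library is unknown, and an absent peak is one that did not pass the caller's threshold at that depth. The labels do not state whether replicates came from separate cultures, and p-values therefore measure the spread between these libraries, which may be technical.

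The sequences under the peaks are shown for the 4 genes on which the results turn, with each RCGTG core, on either strand, in capitals. They were read 5′ to 3′ from the forward strand of GRCh37, and annotated untranslated sequence was left out except for a stretch of 30 bases at GYS1. At GBE1, the DNA shared by the peaks of all 14 libraries with a peak spanned the gene start, and chr3:81810797-81811074 is its upstream part. The window at the median peak centre, chr3:81810469-81810668, lies downstream of the gene start and covers the start of the coding sequence. At PGM1, chr1:64059377-64059479 ends just before the start site used by a shorter transcript. At PPP1R3C, chr10:93392911-93393110 is the window at the median peak centre, just upstream of the gene. At GYS1, chr19:49496846-49496875 lies in the start region shared with RUVBL2. It is upstream of GYS1 and just past the start of RUVBL2, so its annotated untranslated bases are not those of GYS1.
GBE1 upstream of the start: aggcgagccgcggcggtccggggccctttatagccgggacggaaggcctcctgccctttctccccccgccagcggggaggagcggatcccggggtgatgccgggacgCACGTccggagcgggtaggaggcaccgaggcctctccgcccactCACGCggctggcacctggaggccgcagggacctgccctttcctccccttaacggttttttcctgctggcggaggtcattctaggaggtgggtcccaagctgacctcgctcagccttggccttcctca
GBE1 start of the coding sequence: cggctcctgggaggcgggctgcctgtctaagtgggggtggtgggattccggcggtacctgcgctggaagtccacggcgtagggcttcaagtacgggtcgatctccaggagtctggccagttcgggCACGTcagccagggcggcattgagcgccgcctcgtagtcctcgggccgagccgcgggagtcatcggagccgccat
PGM1 upstream of the shorter transcript: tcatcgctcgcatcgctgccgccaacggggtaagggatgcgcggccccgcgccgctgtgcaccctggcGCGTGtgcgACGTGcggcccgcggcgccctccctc
PPP1R3C upstream of the start: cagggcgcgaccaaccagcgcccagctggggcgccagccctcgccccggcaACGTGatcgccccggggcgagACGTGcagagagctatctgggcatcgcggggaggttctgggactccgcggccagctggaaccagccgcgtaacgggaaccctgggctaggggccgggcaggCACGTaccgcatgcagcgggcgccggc
GYS1 and RUVBL2: ggaaaggaGCGTGgaggACGTGtggttact

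Each of these stretches held at least 1 core: 2 upstream of GBE1, 1 at the start of its coding sequence, 2 at PGM1, 3 at PPP1R3C and 2 at GYS1. The stretch at GYS1 was cut around its 2 cores, so that its count was fixed in advance. The stretches differ in length, and only the central 200 bp can be set beside the shares below. Those central windows held 1 core at GBE1, 2 at PGM1, 3 at PPP1R3C and 2 at the start of GYS1. For background, 59.9% of the 23369 peaks on the main chromosomes held a core in the central 200 bp, as did 42.7% of the 19821 windows of 200 bp at starts of protein-coding genes. The central window at PYGL held 0 cores, although its whole site of 1804 bp held 9. The central window at PPP1R3B held 2, which are the same CACGTG read on either strand. At PGM1 and GYS1, copies stood on the same strand with 4 bases between them. This spacing was looked for after the sequences had been seen, and 1.47% of windows at peak centres and 0.222% of windows at gene starts held it. A match of these letters is a description of the DNA and not evidence that HIF was attached to it.

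Peaks were found at 6 of the 7 genes, UGP2 being the exception, and most of them lay at the gene start. Of the 51 peaks, 42 had their centre within 1000 bp of a start site of the gene, 29 of 34 with HIF-1α and 13 of 17 with HIF-2α. A site was counted once per library, 14 times at GBE1 and 12 times at PGM1. The share of all peaks within this distance was not computed, so these counts are not a trait particular to the 7 genes. Overlapping peaks formed 11 sites, of which 8 were present in both replicates of at least 1 group. For GBE1, PGM1, PYGL, PPP1R3B and PPP1R3C, no other protein-coding gene had a start site within 50 kb of theirs. GYS1 had 10 such neighbours, and all 8 of its peaks were nearer to the start of another gene.

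**Figure D1:**
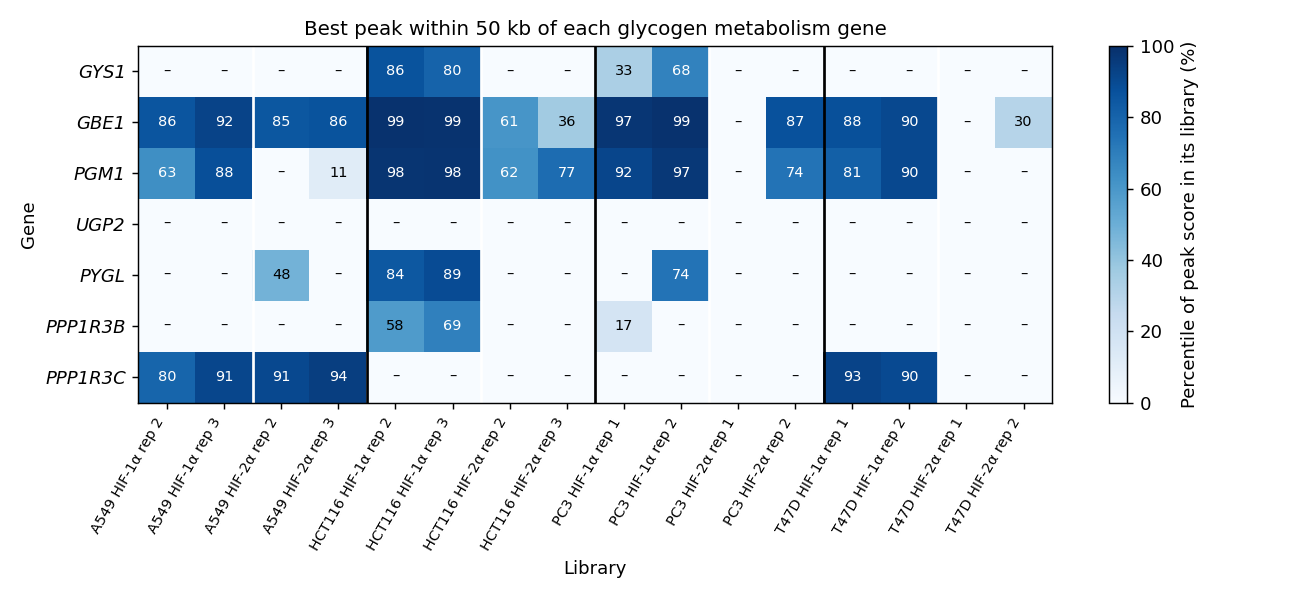
Percentile of the best peak within 50 kb of each gene (rows) in each of the 16 libraries (columns), from 0 to 100%, with a dash where no peak was found; black lines separate the cell lines. With HIF-1α, GBE1 and PGM1 have a peak in every library, PPP1R3C has peaks in A549 and T47D libraries, and the row of UGP2 is empty.

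GBE1, the branching enzyme, had the most widespread peak of the 7 genes, present in 14 of the 16 libraries, 8 with HIF-1α and 6 with HIF-2α. Of all protein-coding genes, 0.747% had a peak in as many libraries or more. The site, chr3:81809585-81811583, spanned the start of the gene at 81810796 on the reverse strand, and its median centre was 227 bp downstream, in a coding exon. All 14 peaks shared 465 bp (81810610 to 81811074), with 3 cores in it, 2 of them in the upstream sequence shown above. The peak of T47D HIF-2α replicate 2 was exactly this stretch.

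With HIF-1α the percentile at GBE1 was 99.0 and 98.7 in HCT116, 97.4 and 99.0 in PC3, 87.5 and 90.3 in T47D, and 85.9 and 92.4 in A549. In HCT116 and PC3 this placed the peak at ranks 34 to 57 of lists of 1517 to 4505 peaks. With HIF-2α it was 60.9 and 36.0 in HCT116, 0 and 87.4 in PC3, 0 and 30.0 in T47D, and 85.0 and 86.5 in A549. The HIF-1α values were therefore all high, whereas the HIF-2α values were high in A549 and in PC3 replicate 2 and lower or absent in the other HIF-2α libraries. In A549 the groups overlapped, and in HCT116, PC3 and T47D every HIF-1α value was above every HIF-2α value. How many of all genes had this order in those lines was not counted.

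PGM1, which supplies glucose 1-phosphate, had a peak in 12 libraries, 8 with HIF-1α and 4 with HIF-2α, and 1.15% of protein-coding genes had as many or more. The site, chr1:64058600-64060302, covered the gene start at 64059082 on the forward strand, but its centres lay 398 bp downstream, around the start site at 64059480 that a shorter transcript uses. The 12 centres fell from 62 bp before to 68 bp after that second start site. All 12 peaks contained the closely spaced cores shown above, which were centred 33 and 24 bp before it.

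With HIF-1α the percentile at PGM1 was 98.0 and 98.1 in HCT116, 91.6 and 96.6 in PC3, 81.3 and 90.4 in T47D, and 63.4 and 87.9 in A549. With HIF-2α it was 62.4 and 76.8 in HCT116, 0 and 73.9 in PC3, 0 and 0 in T47D, and 0 and 11.5 in A549. In contrast to GBE1, the A549 libraries differed here too, and every HIF-1α value was above every HIF-2α value in all 4 lines. Of the 3789 protein-coding genes tested below, 202 had their isoforms fully separated in all 4 lines, in the same direction.

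**Figure D2:**
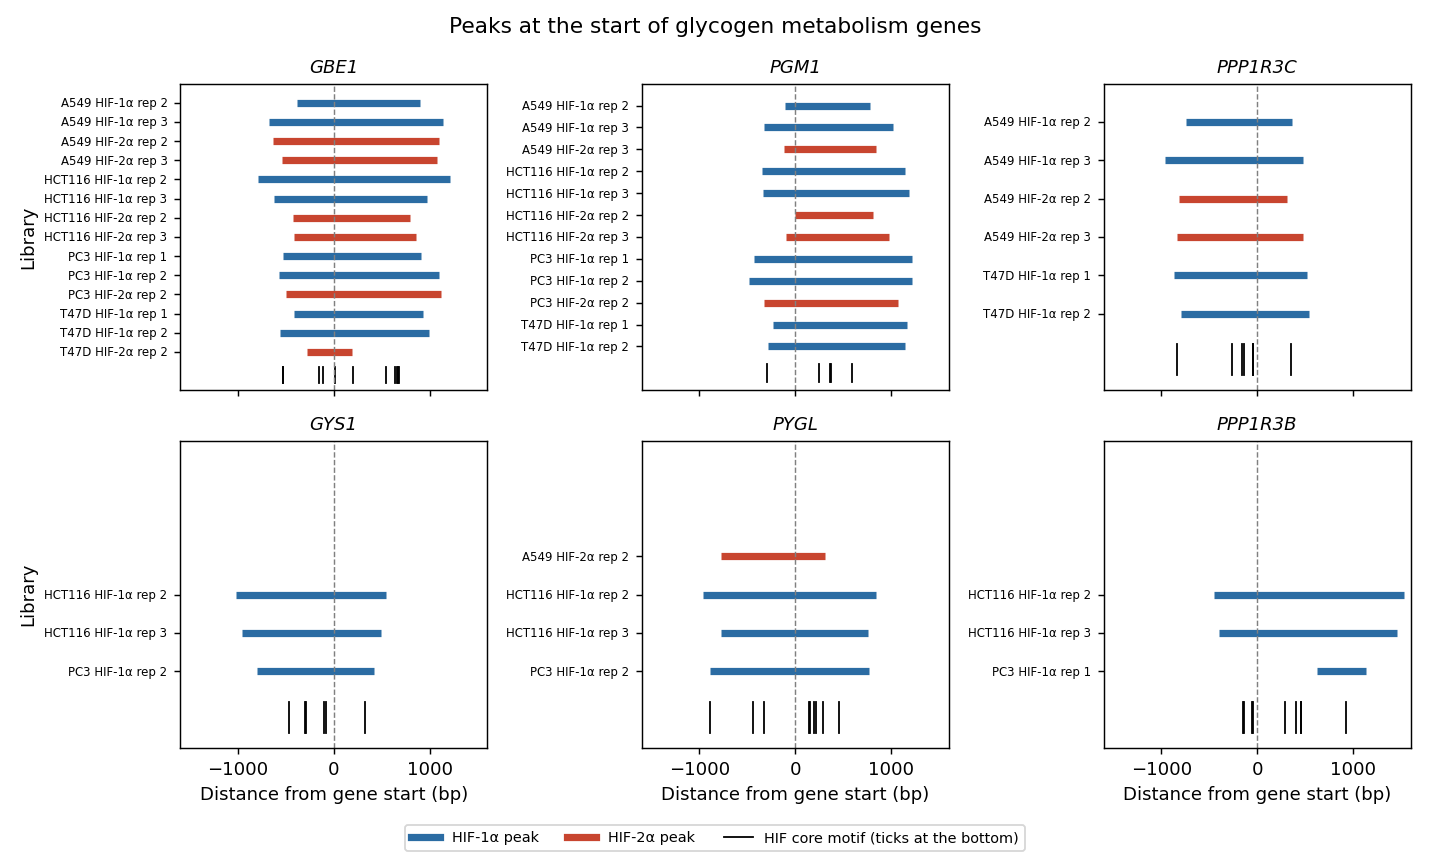
Extent of each peak (horizontal bars, HIF-1α in blue and HIF-2α in red, 1 per library) relative to the gene start (dashed line), in bp in the direction of transcription; ticks at the bottom mark RCGTG cores within the site. The panels show only peaks near the start, so that 5 of the 8 peaks of GYS1, 3 of the 9 of PPP1R3C and 1 of the 5 of PYGL lie outside them; those drawn for GBE1, PPP1R3C, GYS1 and PYGL span the start, and those of PGM1 are centred about 398 bp downstream of it.

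Whether the isoforms differed at a gene was tested by exchanging the HIF-1α and HIF-2α labels within each cell line, among its 4 libraries, which gives 1296 relabellings. The statistic was the mean over the lines of the HIF-1α minus the HIF-2α percentile, the test was exact and two-sided, and its smallest possible p is 0.00154. A single line, with 2 libraries against 2, cannot pass the threshold on its own. All 3789 protein-coding genes with a peak in at least 4 libraries were tested, with Benjamini-Hochberg adjustment over them. HIF-1α was higher at an adjusted p under 0.05 in 414 genes, or 10.9%, and HIF-2α in 1 gene, or 0.0264%. The median difference over all genes tested was 23.9 percentile points and 86.6% of differences were positive, so that a higher HIF-1α value was common in these lists. A gene could enter through 1 isoform alone, with the absent peaks of the other counted as 0. These shares are therefore a description and no support for a difference between the isoforms. How many genes entered in this way was not counted. The HIF-1α libraries of HCT116 and PC3 were the longest. In A549 the HIF-2α lists were longer (1382 and 1056 peaks) than the HIF-1α lists (382 and 629). With every list reduced to its 275 best peaks, 267 genes were called higher with HIF-1α and 27 with HIF-2α. Whether list length contributed was not tested beyond this.

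Of the 7 genes, 5 could be tested. PGM1 was higher with HIF-1α by 60.3 points (mean 88.4 against 28.1, exact p = 0.00154, adjusted p = 0.0289), and GBE1 by 45.5 points (mean 93.8 against 48.2, exact p = 0.00309, adjusted p = 0.0423). When every list was reduced to its 275 best peaks, the differences were 58.6 points at PGM1 and 65.7 points at GBE1, both with an adjusted p of 0.0116 in the exact permutation test. In those lists both genes reached the 4 libraries needed only through HIF-1α, so that these values are no support for the calls. The call at PGM1 was lost without PC3 HIF-1α replicate 2 (adjusted p = 0.0525, exact permutation test). The call at GBE1 was lost without any 1 of 6 libraries, with adjusted p-values from the exact permutation test of 0.0617 (A549 HIF-1α replicate 3), 0.0519 and 0.0509 (A549 HIF-2α replicates 2 and 3), 0.0721 and 0.0807 (PC3 HIF-1α replicates 1 and 2) and 0.0501 (T47D HIF-2α replicate 1). Counting only whether a peak was present, neither PGM1 nor GBE1 passed (adjusted p = 0.203 and 0.699, exact permutation test). With any 1 cell line left out, the difference stayed between 51.8 and 71.0 points at PGM1 and between 36.1 and 59.6 points at GBE1. The smallest exact p was then 0.00926 and none of the genes of the whole series was called, so that the lost calls say nothing about stability. Neither gene passed when all 11820 genes with a peak in at least 1 library were tested (adjusted p = 0.0903 and 0.132, exact permutation test). GBE1 also belongs to a list of core HIF targets that the study chose partly on these libraries, so its broad binding is not independent evidence.

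**Figure D3:**
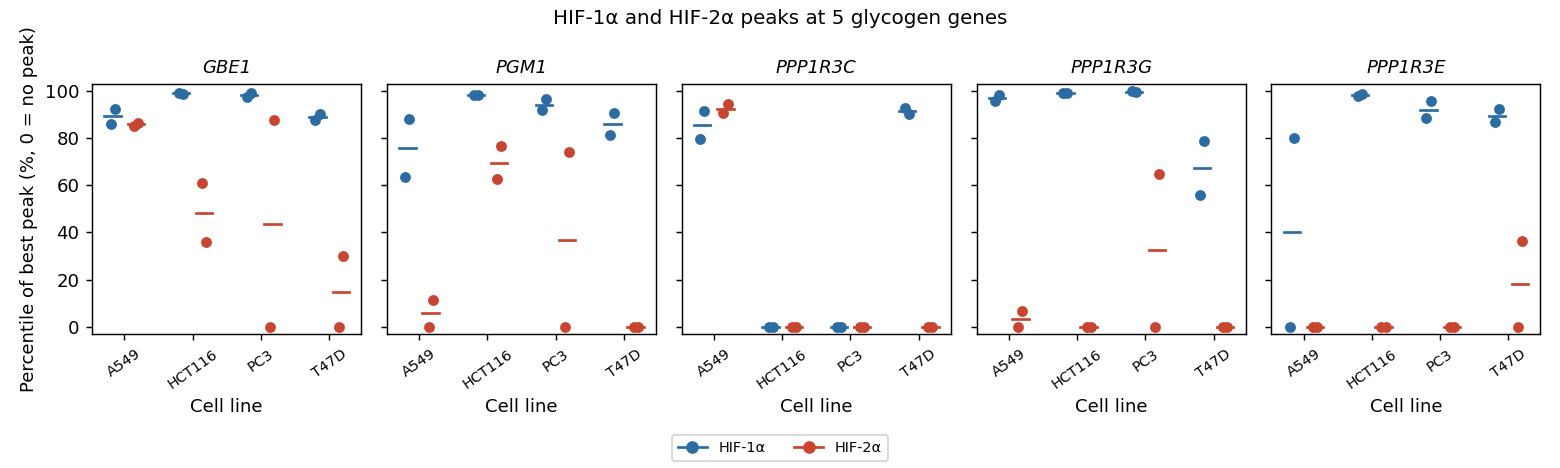
Percentile of the best peak within 50 kb (points, 1 per library, 0 meaning no peak; bars are means of 2 replicates) by cell line for HIF-1α (blue) and HIF-2α (red), at GBE1, PGM1 and PPP1R3C and at PPP1R3G and PPP1R3E, other glycogen-targeting subunits. HIF-1α lies above HIF-2α in every line at PGM1 and PPP1R3G, and at PPP1R3C points above 0 occur only in A549 and T47D.

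GYS1, glycogen synthase itself, had peaks with HIF-1α in 4 libraries and with HIF-2α in none, at 3 sites that other genes share. The site at its start, chr19:49496024-49497581, was centred 227 bp upstream of GYS1 and 25 bp from the start of RUVBL2, a DNA helicase-like ATPase transcribed in the opposite direction, whose start site is 252 bp from that of GYS1. It had percentiles of 86.4 and 80.2 in HCT116 and 63.1 in PC3 replicate 2. A second site, 5413 bp downstream of an internal start site of GYS1 but 13 bp from that of FTL (ferritin light chain), had percentiles of 68.0 and 33.4 in PC3 replicates 2 and 1 and of 77.9 in HCT116 replicate 2. The third, at the start of BAX (a mediator of apoptosis), was found in 1 replicate each of HCT116 (32.2) and PC3 (30.5). None of the 8 peaks was thus particular to GYS1 by distance. The difference between isoforms over its best peaks was 33.5 points and did not pass the threshold (exact p = 0.0556, adjusted p = 0.112). With log10 of the score in place of the percentile its adjusted p was 0.0159 (exact permutation test), a setting in which 1848 genes were called higher with HIF-1α. GYS1 entered the test through its 4 HIF-1α libraries alone, so that this value is no support for a difference.

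UGP2, which makes the UDP-glucose that the synthase uses, had no peak within 50 kb in any of the 16 libraries. The nearest peak in any list was 252251 bp away, in T47D HIF-1α replicate 1, at the start of MDH1 (cytosolic malate dehydrogenase). The 1000 bp around the gene start of UGP2 held 2 cores, a number that 67.2% of protein-coding genes reached. The same window held 4 cores at each of GBE1 and PGM1, 6 at GYS1 and at PPP1R3C, and 8 at PYGL and at PPP1R3B, so that the genes with the most cores were not those with peaks in the most libraries. Cores were counted on each strand, so that a CACGTG counts on both, which raises the numbers at PPP1R3B and PPP1R3C. Of all protein-coding genes, 59.6% had a peak within 50 kb in at least 1 library.

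PYGL, the phosphorylase, had a peak across its start in HCT116 with HIF-1α (84.4 and 89.4), in PC3 HIF-1α replicate 2 (73.9) and in A549 HIF-2α replicate 2 (47.7). The site, chr14:51410357-51412160, was centred 58 bp upstream of the start at 51411201 on the reverse strand. Only HCT116 had it in both replicates. The A549 HIF-2α library had a further peak 11207 bp upstream, at a percentile of 25.8. The HIF-1α minus HIF-2α difference was 25.0 points, close to the median over all genes tested, and did not pass the test (exact p = 0.167, adjusted p = 0.231).

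The phosphatase subunits PPP1R3C and PPP1R3B had peaks in different cell lines. PPP1R3C had its main site across its start, chr10:93392283-93393787, with a median centre 183 bp before the start at 93392828 on the reverse strand. In A549 the percentile was 79.6 and 91.3 with HIF-1α and 90.5 and 94.4 with HIF-2α, and in T47D it was 92.5 and 90.0 with HIF-1α. In T47D HIF-2α, and in all 8 libraries of HCT116 and PC3, no peak was found, although those include the longest lists. The highest value at PPP1R3C was thus a HIF-2α value of A549, where the groups overlapped. The peaks of all 6 libraries contained the 3 cores shown above.

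A549 HIF-2α also had peaks at PPP1R3C away from the start. One site 19499 bp upstream was present in both replicates at percentiles of 15.2 and 27.4, and another 41880 bp downstream was present in replicate 2 at 6.01. No HIF-1α library had a peak at either position. Over all lines, the difference at PPP1R3C was 21.1 points in the direction of HIF-1α and did not pass the test (exact p = 0.278, adjusted p = 0.360). With peaks in 4 HIF-1α and 2 HIF-2α libraries, PPP1R3C entered that test through HIF-1α, so this value is a description. Without T47D the difference was -2.35 points (adjusted p = 0.723, exact permutation test).

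PPP1R3B had a peak in HCT116 with HIF-1α at percentiles of 58.3 and 69.0, and in PC3 HIF-1α replicate 1 at 17.5. The site, chr8:9007549-9009537, covered the gene start at 9009084 on the reverse strand, with its median centre in an intron. That centre lay 375 bp upstream of a second start site at 9008168. The PC3 peak did not reach the gene start and was centred 35 bp upstream of the second start site. With a peak in only 3 libraries PPP1R3B was not tested for isoform. The lists of those libraries held 4505, 4465 and 1517 peaks. All lists of A549 and T47D were shorter, with at most 1382 peaks, and whether this mattered was not tested.

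The share of the 7 genes with a site, that is overlapping peaks in both replicates within 50 kb, was set beside the share of all protein-coding genes in each group. With HIF-1α, 3 of 7 had a site in A549 (GBE1, PGM1, PPP1R3C) against 2.53% of all genes, 5 of 7 in HCT116 (GYS1, GBE1, PGM1, PYGL, PPP1R3B) against 24.9%, 3 of 7 in PC3 (GYS1, GBE1, PGM1) against 11.3%, and 3 of 7 in T47D (GBE1, PGM1, PPP1R3C) against 5.09%. With HIF-2α, 2 of 7 had a site in A549 (GBE1, PPP1R3C) against 4.55%, 2 of 7 in HCT116 (GBE1, PGM1) against 3.18%, 0 of 7 in PC3 against 1.14%, and 0 of 7 in T47D against 1.27%. The sites counted for GYS1 lay at the start shared with RUVBL2 in HCT116 and at the start of FTL in PC3, and when each peak was assigned to its nearest gene only, the HIF-1α combinations of gene and cell line with a site fell from 14 to 12. GBE1 and PGM1 had a HIF-1α site in all 4 lines, as did 1.49% of protein-coding genes. A site in at least 1 group was found for 6 of the 7 and for 30.1% of protein-coding genes. Since the genes were chosen with earlier results of these data known, no test of these shares was made.

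**Figure D4:**
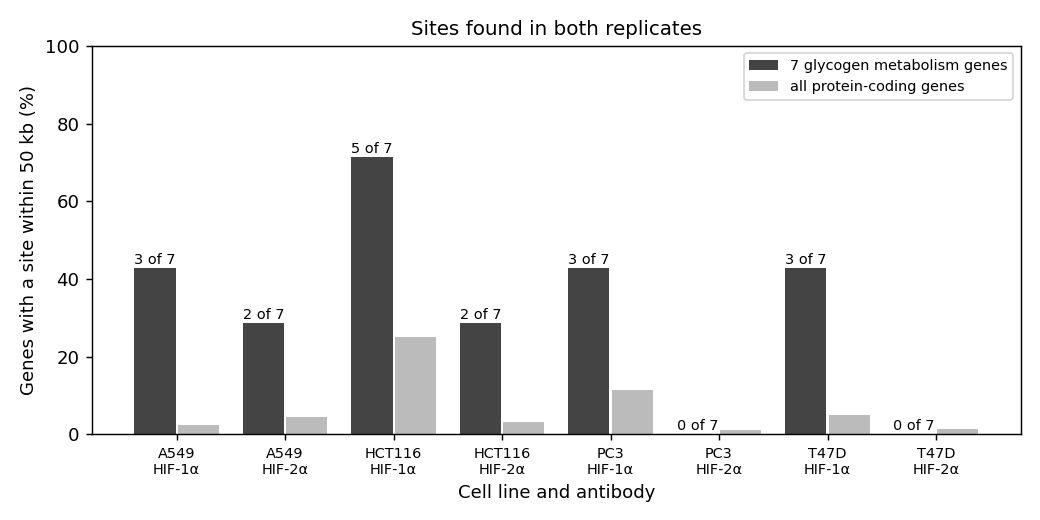
Percentage of the 7 genes (dark bars, with counts) and of all protein-coding genes (light bars) that had a site in both replicates within 50 kb, by cell line and antibody. The dark bars are highest in HCT116 HIF-1α, at 5 of 7, where the light bar is also the highest at 24.9%, and both HIF-2α groups of PC3 and T47D have 0 of 7.

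Beyond these genes, 26 others of glycogen metabolism were examined, of which 18 had a peak in any library, against 59.6% of all protein-coding genes, and 12 a site in at least 1 group, against 30.1%. A HIF-1α site was present for 11 of the 12, and for 92.8% of all genes with a site in any group. In the isoform test, in which 10.9% of genes were called higher with HIF-1α, 5 of the 26 were included and 2 passed, PPP1R3G and PPP1R3E, which encode glycogen-targeting subunits of protein phosphatase 1. Both had enough libraries for the test only through HIF-1α, so that their values are given as a description.

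PPP1R3G (chromosome 6) had a peak 357 to 775 bp upstream of its start in each of the 8 HIF-1α libraries. The percentile was 99.7 and 99.3 in PC3, 99.0 and 99.2 in HCT116, 95.5 and 98.1 in A549, and 55.7 and 78.8 in T47D. In replicate 1 of PC3 it was the peak of rank 6 among 1517. With HIF-2α, only A549 replicate 3 (6.72) and PC3 replicate 2 (64.7) had a peak, the latter at a second position 2678 bp upstream where the PC3 HIF-1α libraries had peaks as well. The HIF-1α minus HIF-2α difference was 81.7 points (exact p = 0.00154, adjusted p = 0.0289 in the isoform test). Since PPP1R3G entered the test through HIF-1α, this value is no support for a difference.

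PPP1R3E (chromosome 14) had a peak at its start in 7 HIF-1α libraries, at 97.8 and 98.6 in HCT116, 88.5 and 95.6 in PC3, 86.6 and 92.3 in T47D, and 80.1 in A549 replicate 3. With HIF-2α it was found only in T47D replicate 2, at 36.3. The difference was 75.4 points (exact p = 0.00463, adjusted p = 0.0423 in the isoform test), which for the same reason is no support for a difference. In HCT116 replicate 3 the centre of its peak was marginally nearer to the start of BCL2L2, at 349 bp against 364 bp.

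Among the other 10 with a site, PPP1CB, a catalytic subunit of protein phosphatase 1, had a peak at its start in 6 HIF-1α libraries. Its percentiles were 91.1 and 94.5 in HCT116, 87.4 and 95.2 in PC3, 10.0 in A549 replicate 3 and 36.8 in T47D replicate 1. PPP1CB did not pass the isoform test (difference 51.9 points, exact p = 0.0139, adjusted p = 0.0781). It had no HIF-2α peak and entered the test through HIF-1α alone, so that this value is no support for a difference. EPM2A (laforin, a glycogen phosphatase) and STBD1 (which binds glycogen) had a site at their own start in HCT116 with HIF-1α, the first at 13.1 and 87.1 and the second at 81.7 and 87.5. PPP1CC, another catalytic subunit, had a site at its start in PC3 with HIF-1α, at 65.1 and 14.0. The sites of the remaining 6 lay at the starts of other genes. PYGM and PYGB, the muscle-type and brain-type phosphorylases, had theirs at RASGRP2 and ABHD12, GAA (acid α-glucosidase) at EIF4A3, and GSK3A (a kinase that phosphorylates glycogen synthase) at ERF and near CIC. That of PHKG2 (a phosphorylase kinase subunit) was at SRCAP, and that of PPP1CA, the third catalytic subunit and the gene with the HIF-2α site, was in A549 at CLCF1.

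The genes on other chromosomes whose percentiles over the 16 libraries were most like those of GBE1 included RBPJ and KMT2E, with mean absolute differences of 6.98 and 8.95 points. RBPJ encodes the DNA-binding partner of Notch, and KMT2E a SET-domain chromatin protein. For PGM1 they were HR, HRURF and REEP4, each at 6.57 points. These 3 lie together on chromosome 8 and shared the same peaks, so that they count as 1 locus. The libraries share their lengths, and such likeness is a description over 16 points.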

How the data were processed

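The authors trimmed adapters (Trim Galore 0.3.3), aligned reads to GRCh37 with BWA 0.7.5a-r405, kept reads of mapping quality of at least 15 outside blacklisted regions, removed duplicates (Picard 2.0.1), and called peaks per library with MACS in control mode. Its version is not given in the sources used here, nor is which library served as its control (pre-immunization serum was the negative control of the precipitation). The study also used a second caller, T-PIC, and a filter on read counts. Peaks in all 16 lists are named as MACS peaks and numbered from 1 without gaps, so neither step removed peaks after this numbering. SAMtools 0.1.19 and bedtools 2.17.0 are also named in the submitters' processing notes. Per peak, the deposited score was at least 50 in every list; it was used for ranks within a library, except in 2 alternatives, log10 of the score and a threshold of 74.55 (the median of all peaks) for every library. Depth per library is unknown, and the number of peaks, 275 to 4505, limits the percentiles. Libraries of HIF-1β, RNA-seq and other cell lines were not analysed here.

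Start sites came from GENCODE release 44 mapped to GRCh37. Distances were measured from peak centres, and replicate peaks were joined when they shared at least 1 bp. Scripts ran under Python 3.11.15 (pysam 0.24.0, scipy 1.17.1, numpy 2.4.6, matplotlib 3.10.9). The isoform test was the exact permutation test described in the report, with a threshold of 0.05 after Benjamini-Hochberg adjustment, and its code was tested on simulated data. The 7 genes, the 26 other glycogen genes and the lists were chosen with earlier results of these data known. Named were the 7 genes, the nearest gene at their sites, the other glycogen genes with a site in both replicates of a group, and the 3 genes on other chromosomes most like each of the 7 with a peak in at least 8 libraries. Of these, 1 gene is not reported here. BCL2L2, EIF4A3, ERF, CIC, SRCAP, CLCF1, RASGRP2, ABHD12, MDH1 and BAX were named after their values had been seen, as the genes at the peaks described. Alternatives comprised windows of 5, 10 and 100 kb, 1 start site per gene, the nearest or 3 nearest genes, stricter or equal-sized lists, presence in place of percentile, other filters, either replicate, a reciprocal overlap of 50%, the replicate block, and leaving out each library and cell line.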

Additional observations from a re-analysis of the deposited data

How the results depend on the processing

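Of the 2 genes called higher with HIF-1α, 0 passed when presence replaced the percentile, when genes with a peak in at least 1 library were tested, with the replicate block, or without any 1 cell line, where only 216 relabellings remained; leaving out 1 library gave 0 to 2. In the replicate block, labels were exchanged only between libraries of the same number (256 relabellings, smallest p 0.00781), and the adjusted p was 0.137 at GBE1 and at PGM1 (exact permutation test). The numbers were not shown to pair the libraries, since deviations of same-numbered libraries correlated at -0.042 in HCT116, 0.053 in A549 and 0.032 in both PC3 and T47D. The HIF-1α combinations of gene and cell line with a site numbered 14 and moved by less than 1.5 times in the 26 alternatives tried. The HIF-2α combinations numbered 4, but 2 at scores of at least 74.55, 2 with the 275 best peaks of each list and 9 with a peak in either replicate. The difference at PPP1R3C reversed to -2.35 points without T47D.

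Over all genes, 414 were called higher with HIF-1α, but 194 within 10 kb, 236 within 5 kb, 676 within 100 kb, 136 for the nearest gene only, 267 with equal-sized lists and 1848 with log10 scores. Without A549 HIF-1α replicate 2, PC3 HIF-1α replicate 1 or T47D HIF-1α replicate 1 the count was 714, 635 or 678, and without A549 HIF-1α replicate 3, A549 HIF-2α replicate 2 or 3 or T47D HIF-2α replicate 1 it was 200, 161, 184 or 187. It was 0 with presence, with genes of at least 1 library, with the replicate block and without any 1 cell line. The 1 gene higher with HIF-2α became 0 to 27 in these alternatives. The cause of these changes was not tested. Unknown depth limits every absent peak, and no library of cells in normal oxygen was compared.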
